A study of Mus musculus with 9 samples.

Results

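A set of 5 miRNAs linked to liver injury, to activation of hepatic stellate cells or to hypoxia was followed through mouse liver exosomes. The mice came from a study of diet-induced steatohepatitis. The members were mmu-miR-221-3p, mmu-miR-222-3p, mmu-miR-132-3p, mmu-miR-212-3p and mmu-miR-210-3p. They were chosen by name, and the table held all 5 members among its 722 miRNA entries. The 9 libraries fell into 3 groups of 3 mice. KO HFFC mice lacked Hsp90β (the gene hsp90ab1) in hepatocytes and ate the HFFC diet, which is rich in fat, fructose and cholesterol. Flox HFFC mice carried the floxed Hsp90β allele with no deletion and ate the same diet, and flox chow mice were of the same floxed genotype on chow. All groups thus shared the floxed allele. Per the study's methods the deletion was driven by Cre under the Albumin promoter, which is active in hepatocytes. By the same methods the diets were started in young adult mice and lasted for months. The miRNA table cannot check the deletion. Knockout mice on chow are not among these samples, so in KO HFFC against flox chow the diet and the deletion cannot be told apart.

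miRNAs are short RNAs that guide silencing complexes to messenger RNAs. Target choice depends mainly on the seed, bases 2 to 8 counted from the 5′ end, so miRNAs with 1 seed can share many targets. miR-221 and miR-222 lie side by side on the X chromosome, repress cell cycle inhibitors such as p27, and have been linked to stellate cell activation and liver fibrosis. miR-132 and miR-212 form a second cluster that is induced by the transcription factor CREB and has been described in neurons, in inflammation and in fibrosis. miR-210 is the best known miRNA of the hypoxia response, is induced by HIF-1α and represses, among others, the mitochondrial iron-sulfur scaffold protein ISCU.

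The mature sequences are shown because the 5 members hold only 3 seeds. Sequences and positions are those of RefSeq on GRCm38.p6, each written from 5′ to 3′ with the seed in capitals.
miR-221-3p: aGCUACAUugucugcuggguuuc
miR-222-3p: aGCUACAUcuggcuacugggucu
miR-132-3p: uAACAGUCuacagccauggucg
miR-212-3p: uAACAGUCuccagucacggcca
miR-210-3p: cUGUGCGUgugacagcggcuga
miR-221-3p (chrX:19146307-19146329, minus strand) and miR-222-3p (chrX:19146901-19146923, minus strand) shared their first 8 bases and were identical at 11 of 23 positions. Their hairpins were 504 bases apart, and neither overlapped a host gene in the GENCODE annotation. miR-132-3p (chr11:75173723-75173744, plus strand) and miR-212-3p (chr11:75173443-75173464, plus strand) shared their first 9 bases and were identical at 17 of 22 positions. Their hairpins were 203 bases apart, both within an intron of the noncoding transcript 1700016P03Rik. miR-210-3p (chr7:141221407-141221428, minus strand) had a seed of its own among the members and no host gene.

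The libraries held 218256 to 681286 miRNA counts, and a count of 0 allowed up to 3 counts, that is 4.40 to 13.7 counts per 1000000 miRNA counts (CPM) of a library (counting error only). The hepatocyte miRNAs, miR-122-5p among them, were detected in every library (6 of 6) and summed to between 252358 and 422985 CPM. Flox chow replicate 3 stood apart by its muscle miRNAs, which summed to 5897 CPM against 58.7 to 277 CPM in the other libraries. KO HFFC replicates 2 and 3 stood apart by miR-181b-5p, with 440 and 889 counts, where the remaining libraries had 6 to 40. Values without these libraries are given below for some estimates and list medians. Not every estimate or median that moved is given in this way. In such bulk samples a smaller number of vesicles from a cell type cannot be told apart from less of a miRNA per vesicle.

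The members spanned a wide range of abundance. miR-221-3p ranked 79 of 722 entries with 2076 counts over the 9 libraries, and miR-222-3p ranked 139 with 508 counts. The other members were near the detection limit: miR-212-3p ranked 337 with 24 counts, miR-210-3p 392 with 15 and miR-132-3p 428 with 11. Only miR-221-3p and miR-222-3p had enough counts to pass the low-count filter, which 248 entries passed, so only these members could be tested in the edgeR fit. Within a library miR-221-3p exceeded miR-222-3p in all 9. The order of miR-132-3p, miR-212-3p and miR-210-3p varied between libraries, and their levels were not separable at this depth. Ligation and amplification differ between miRNA sequences, so an order of counts is an order in these libraries and may not be the order of molecules.

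miR-221-3p did not pass the test in any comparison. On the TMM scale, which corrects totals for composition, it reached 406, 297 and 492 CPM in KO HFFC, 684, 975 and 318 CPM in flox HFFC and 584, 508 and 379 CPM in flox chow exosomes (replicates 1, 2 and 3 in each). The highest and the next highest values were those of flox HFFC replicates 2 and 1, but only KO HFFC replicate 2 was below flox HFFC replicate 3, so the groups overlapped in every comparison. The mean was 398 ± 98.1 CPM in KO HFFC, 659 ± 329 CPM in flox HFFC and 490 ± 103 CPM in flox chow exosomes (SD, n = 3 each).

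miR-222-3p had its highest mean in KO HFFC exosomes and its lowest in flox chow exosomes. It reached 120, 153 and 325 CPM in KO HFFC, 152, 158 and 65.6 CPM in flox HFFC and 43.7, 100.0 and 73.5 CPM in flox chow exosomes. KO HFFC replicate 3 held the highest value, and all KO HFFC libraries lay above all flox chow libraries, whereas flox HFFC overlapped with both other groups. The means were 199 ± 110 CPM in KO HFFC, 125 ± 51.5 CPM in flox HFFC and 72.4 ± 28.2 CPM in flox chow exosomes (SD, n = 3 each).

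**Figure D1:**
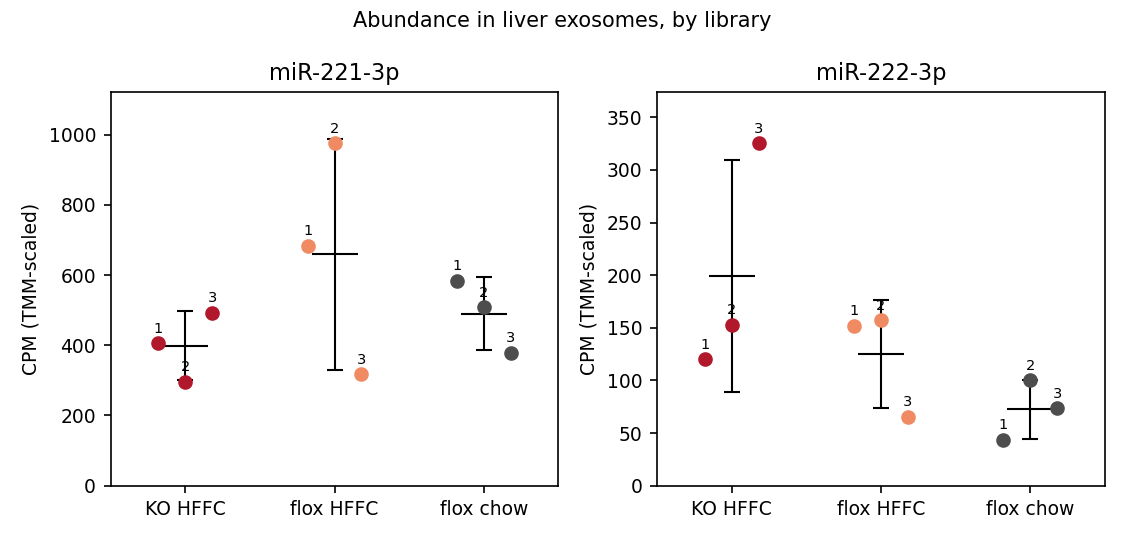
CPM (TMM-scaled) of miR-221-3p and miR-222-3p in each library, with the replicate number beside each point; the long bar is the mean of 3 libraries and the whiskers its SD. For miR-222-3p the lowest KO HFFC library (120 CPM) lies above the highest flox chow library (100.0 CPM), while for miR-221-3p all groups overlap.

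In flox HFFC against flox chow exosomes, which asks what the diet changed, miR-221-3p had a log2 fold change of 0.43 ± 0.47 (SE; adjusted p = 0.985) and miR-222-3p one of 0.78 ± 0.56 (adjusted p = 0.985, edgeR quasi-likelihood test with Benjamini-Hochberg adjustment). Their 95% intervals ran from -0.50 to 1.35 and from -0.32 to 1.87, so for both miRNAs they took in no difference as well as an increase of more than 2-fold. No entry passed the threshold of 0.05 in this comparison (0% of 248, with 11 at an unadjusted p below 0.05, edgeR). DESeq2 called 0 of 718 entries. The value of miR-221-3p was 0.01 without flox HFFC replicate 2 and was 0.26 without flox chow replicate 3. That of miR-222-3p was 0.44 without flox chow replicate 1.

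In KO HFFC against flox HFFC exosomes, which asks what the deletion changed on the diet, the estimates of the cluster partners had opposite signs. miR-221-3p had a log2 fold change of -0.73 ± 0.47 (95% interval -1.66 to 0.20; adjusted p = 0.689, edgeR) and miR-222-3p one of 0.67 ± 0.55 (-0.40 to 1.74; adjusted p = 0.787, edgeR). Again no entry was called (0% of 248, with 20 at an unadjusted p below 0.05, edgeR). DESeq2 called 5 of 718 entries, neither member among them. For miR-221-3p the value was -0.41 without flox HFFC replicate 2, and it was -1.05 once flox HFFC replicate 3 was left out (adjusted p = 0.439, edgeR). For miR-222-3p it was 0.11 without KO HFFC replicate 3, 0.36 without flox HFFC replicate 3 and 0.03 with KO HFFC replicate 1 alone.

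In KO HFFC against flox chow exosomes miR-222-3p had the largest difference of any member tested, 2.73-fold, with a log2 fold change of 1.45 ± 0.56 (95% interval 0.35 to 2.55). Its unadjusted p of 0.0241 ranked 14 of 248 and did not pass after adjustment (adjusted p = 0.345, edgeR). miR-221-3p had a log2 fold change of -0.30 ± 0.47 (95% interval -1.23 to 0.62; adjusted p = 0.855, edgeR). No entry passed the threshold here either (0% of 248, with 32 at an unadjusted p below 0.05, edgeR). DESeq2 called 6 of 718 entries, neither member among them. Groups that do not overlap, as for miR-222-3p, were found for 17.7% of the tested entries in this comparison, for 14.1% in KO HFFC against flox HFFC and for 8.47% in flox HFFC against flox chow. The value of miR-222-3p was 0.87 without KO HFFC replicate 3 (adjusted p = 0.691, edgeR) and 0.77 with KO HFFC replicate 1 alone. The comparisons share libraries and are not independent of each other.

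**Figure D2:**
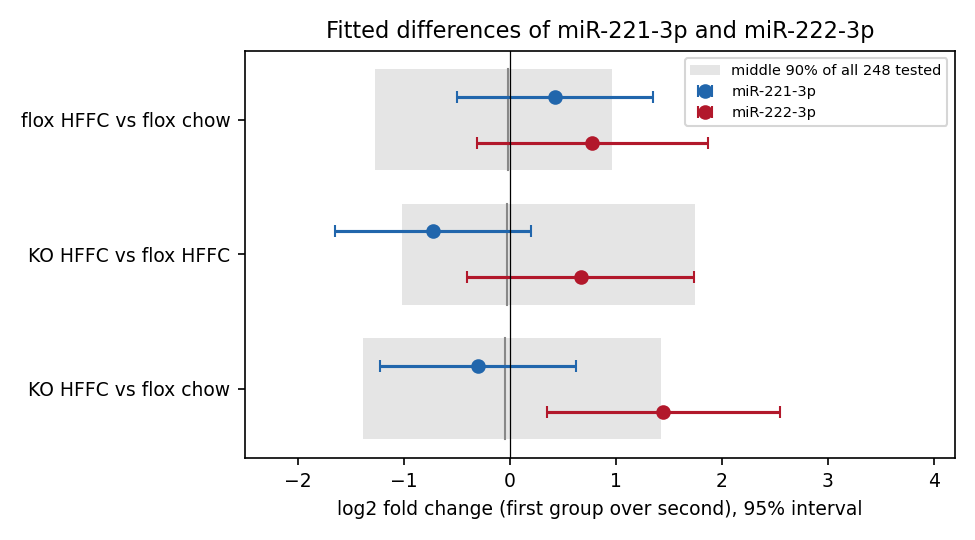
Log2 fold changes of miR-221-3p (upper point of each pair) and miR-222-3p (lower point) with 95% intervals in the 3 comparisons; grey boxes span the middle 90% of the 248 tested entries and the grey line is their median. Of the 6 intervals, only that of miR-222-3p in KO HFFC against flox chow, 0.35 to 2.55, lies off 0, before adjustment over the 248 entries.

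KO HFFC replicate 3, the library with the most miR-222-3p, also held the most miR-200c-3p, but it was highest in none of the marker sums below. miR-200c-3p, an epithelial and biliary marker, had 6, 59 and 117 counts in KO HFFC, 6, 1 and 5 in flox HFFC and 11, 12 and 0 in flox chow exosomes. KO HFFC replicate 3 was highest for both miRNAs, and KO HFFC replicate 2 was next in miR-200c-3p but slightly below flox HFFC replicate 2 in miR-222-3p. The other members of its list did not follow it: KO HFFC replicate 3 had the lowest miR-200a-3p of the KO HFFC group (170 CPM, beside 227 and 200 CPM in replicates 1 and 2), and the log2 fold change in KO HFFC against flox HFFC was -0.69 ± 0.82 for miR-200b-3p, 0.05 ± 0.49 for miR-200a-3p, 0.17 ± 0.55 for miR-429-3p and 0.71 ± 0.61 for miR-141-3p (SE). The 5 epithelial miRNAs summed to 1488 to 2208 CPM in KO HFFC, 580 to 2334 CPM in flox HFFC and 568 to 1095 CPM in flox chow exosomes, and miR-200c-3p was at 0 in flox chow replicate 3. The 5 mesenchymal and stellate miRNAs summed to 11932 to 16826 CPM in KO HFFC, 8600 to 13339 CPM in flox HFFC and 6648 to 14854 CPM in flox chow exosomes. The 2 endothelial miRNAs, of a cell type rich in miR-221 and miR-222, summed to 52546 to 66988, 43523 to 61802 and 37470 to 72735 CPM in the same order of groups, and the 5 leukocyte miRNAs to 845 to 1071, 712 to 933 and 651 to 898 CPM. Their part in the result was not tested.

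The balance of the 2 cluster partners needs no scaling, since both are counted in 1 library. There were 186, 159 and 165 counts of miR-221-3p beside 55, 82 and 109 counts of miR-222-3p in KO HFFC exosomes, which gave ratios of 3.38, 1.94 and 1.51. Flox HFFC exosomes had 180, 545 and 131 counts of miR-221-3p beside 40, 88 and 27 of miR-222-3p, with ratios of 4.50, 6.19 and 4.85. Flox chow exosomes had 267, 376 and 67 beside 20, 74 and 13, with ratios of 13.4, 5.08 and 5.15. All 3 KO HFFC ratios were thus below all 6 ratios of the floxed groups. The interval of KO HFFC replicate 1 (2.49 to 4.66, exact 95%, counting error only) overlapped those of 4 of the 6 floxed libraries, flox HFFC replicates 1 (3.18 to 6.51) and 3 (3.19 to 7.64) and flox chow replicates 2 (3.95 to 6.61) and 3 (2.82 to 10.2), whereas those of KO HFFC replicates 2 (1.48 to 2.56) and 3 (1.18 to 1.95) lay below every interval of the floxed groups.

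The mean log2 ratio was 1.10 ± 0.59 in KO HFFC, 2.36 ± 0.24 in flox HFFC and 2.82 ± 0.80 in flox chow exosomes (SD, n = 3 each). In KO HFFC exosomes the ratio was therefore 0.419 times that in flox HFFC and 0.305 times that in flox chow exosomes (geometric means), a description that was given no test. With KO HFFC replicate 1 alone the log2 difference from flox HFFC was -0.60, against -1.26 with all 3 knockout libraries. Between flox HFFC and flox chow the ratios overlapped, and the log2 difference of -0.46 was 0.00 without flox chow replicate 1.

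Such a shift was also seen in other clusters. Of 36 pairs of tested miRNAs whose hairpins lie within 10000 bases of each other on 1 strand, a set chosen after the ratio was seen, the ratios did not overlap in 16.7% in KO HFFC against flox HFFC, in 27.8% in KO HFFC against flox chow and in 5.56% in flox HFFC against flox chow. These pairs include miR-221-3p with miR-222-3p and are not independent: 4 of the 6 in KO HFFC against flox HFFC and 5 of the 10 in KO HFFC against flox chow lie in the miR-99b, let-7e and miR-125a cluster. Of the 30 pairs outside both clusters 1 did not overlap in KO HFFC against flox HFFC and 4 did not in KO HFFC against flox chow. Over all 9 libraries the log2 ratio of miR-221-3p to miR-222-3p had an SD of 0.891, rank 15 of the 36 pairs counted from the steadiest, with a median over the pairs of 0.951.

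**Figure D3:**
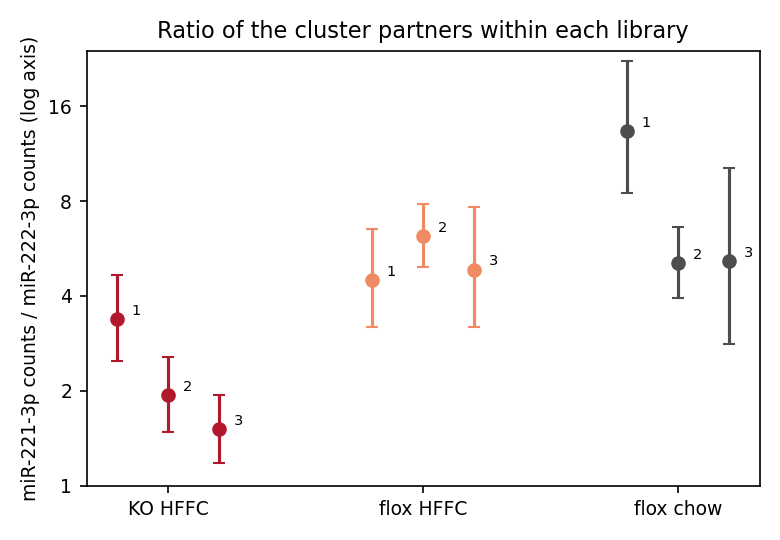
Counts of miR-221-3p divided by counts of miR-222-3p in each library on a log axis; bars are exact 95% intervals for counting error, and numbers are replicates. KO HFFC ratios (1.51 to 3.38) lie below those of flox HFFC (4.50 to 6.19) and flox chow (5.08 to 13.4), with the interval of KO HFFC replicate 1 overlapping those of flox HFFC replicates 1 and 3 and of flox chow replicates 2 and 3.

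The neighbours did not follow one another closely across the 9 libraries. Likeness was measured as the root mean square difference of log2 CPM after centring each entry on its mean, and the libraries of all groups entered it. The entries most like miR-221-3p were let-7i-5p (0.32), miR-93-5p (0.37) and miR-26a-5p (0.38), and miR-222-3p came only at rank 136 (0.84). The entries most like miR-222-3p were miR-99b-5p (0.38), miR-23a-3p (0.44) and miR-484 (0.46), with miR-221-3p at rank 60. These neighbours depended on single libraries: for miR-221-3p only 1 of the 3 was kept in 5 of 9 leave-outs and 2 in the other 4. Without KO HFFC replicate 3 none of these 3 stayed among the nearest 3 of miR-222-3p (0 of 3), and without flox chow replicate 1 the difference between the cluster partners was 0.67. Over the 9 libraries the SD of log2 CPM was 0.54 for miR-221-3p and 0.82 for miR-222-3p, beside a median of 0.68 over the tested entries.

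miR-132-3p was counted in all 3 KO HFFC libraries and in no flox chow library. It had 4, 1 and 2 counts in KO HFFC, 0, 1 and 3 in flox HFFC and 0, 0 and 0 in flox chow exosomes. The KO HFFC and flox chow groups did not overlap, though 1 count set them apart in KO HFFC replicate 2. Such separation occurred for 6.96% of the 474 entries below the filter in this comparison, for 6.75% in KO HFFC against flox HFFC and for 4.64% in flox HFFC against flox chow. No minimum count was set for these entries, so they are not matched to miR-132-3p in counts. The 7 counts in KO HFFC against 0 in flox chow set a lower limit of 1.68 on the ratio per total (exact 95% interval, counting error only), and the difference in mean was 6.06 CPM of all miRNA counts (exact two-sided permutation test, p = 0.1, the smallest that 3 against 3 libraries can give). In KO HFFC against flox HFFC the 7 and 4 counts gave a ratio per total of 1.92 (95% interval 0.488 to 8.94, counting error only; exact permutation p = 0.4). In flox HFFC against flox chow the difference was 3.03 CPM (exact permutation p = 0.4).

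miR-212-3p, which has the seed of miR-132-3p, had its most counts in flox HFFC replicates 2 and 3. It had 4, 0 and 1 counts in KO HFFC, 1, 7 and 7 in flox HFFC and 1, 0 and 3 in flox chow exosomes. All groups overlapped, and scaled to library size flox chow replicate 3 (13.7 CPM) lay between flox HFFC replicates 3 (17.3 CPM) and 2 (11.6 CPM). The means were 4.24 ± 4.81 CPM in KO HFFC, 10.8 ± 7.01 CPM in flox HFFC and 5.27 ± 7.41 CPM in flox chow exosomes (SD, n = 3 each). The difference was 5.51 CPM in flox HFFC against flox chow (exact permutation p = 0.4), -6.54 CPM in KO HFFC against flox HFFC (exact permutation p = 0.2) and -1.03 CPM in KO HFFC against flox chow (exact permutation p = 0.9). The last changed sign without KO HFFC replicate 2 (1.09 CPM) and without flox chow replicate 3 (3.21 CPM), so no direction can be given for it. Counts pooled over the 3 libraries, which leave out the spread between mice, were 15 in flox HFFC and 4 in flox chow (ratio per total 3.99, 95% interval 1.27 to 16.5).

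miR-210-3p was counted in every flox HFFC library and in no flox chow library. It had 0, 2 and 2 counts in KO HFFC, 1, 4 and 6 in flox HFFC and 0, 0 and 0 in flox chow exosomes. Flox HFFC and flox chow did not overlap, although flox HFFC replicate 1 was separated by 1 count, and KO HFFC overlapped with both. A lack of overlap between flox HFFC and flox chow was found for 4.64% of the 474 entries below the filter. These entries were not matched to miR-210-3p in counts. The 11 counts in flox HFFC against 0 in flox chow set a lower limit of 2.67 on the ratio per total (exact 95% interval, counting error only), and the difference in mean was 8.30 CPM (exact two-sided permutation test, p = 0.1, the smallest possible). In KO HFFC against flox HFFC the difference was -4.67 CPM and the pooled ratio 0.399 (95% interval 0.0926 to 1.35, counting error only; exact permutation p = 0.4). In KO HFFC against flox chow it was 3.63 CPM (exact permutation p = 0.4). None of miR-132-3p, miR-212-3p and miR-210-3p was called in an edgeR fit without the filter or in DESeq2.

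**Figure D4:**
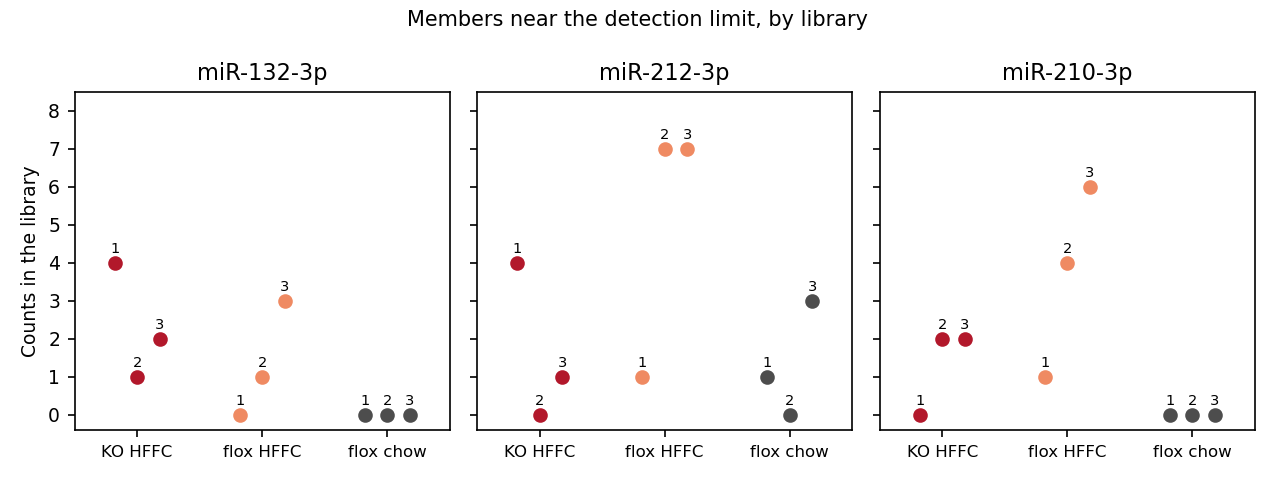
Counts of miR-132-3p, miR-212-3p and miR-210-3p in each library (numbers are replicates; counts are not scaled to library size). No library exceeds 7 counts, and all 3 flox chow libraries are at 0 for miR-132-3p and miR-210-3p.

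The opposite arms of the hairpins were scarce. miR-221-5p had 0, 2 and 7 counts in KO HFFC, 0, 5 and 0 in flox HFFC and 0, 0 and 0 in flox chow exosomes, so that the 3p arm outnumbered it 148 to 1 over all libraries (2076 against 14 counts). For the chromosome 11 cluster the arms were closer. miR-212-5p had 4, 7 and 1 counts in KO HFFC, 0, 5 and 0 in flox HFFC and 2, 2 and 0 in flox chow exosomes, 21 in all beside 24 of the 3p arm. miR-132-5p had 7 counts in all beside 11 of the 3p arm, with 0, 0 and 0 in KO HFFC, 0, 2 and 0 in flox HFFC and 0, 4 and 1 in flox chow exosomes. No opposite arm passed the filter, and miR-222-5p and miR-210-5p were not analysed here.

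miR-210-3p could be set beside 9 other miRNAs linked to hypoxia (the miR-23, miR-24, miR-26, miR-27 and miR-103/107 families and miR-322-5p, the mouse counterpart of human miR-424), all of which passed the filter. None was called. In flox HFFC against flox chow 7 had positive and 2 negative estimates, with a median log2 fold change of 0.12 beside -0.02 over all tested entries (0.01 beside 0.06 without flox chow replicate 3). In KO HFFC against flox HFFC 3 were positive and 6 negative (median -0.06, all entries -0.03), and in KO HFFC against flox chow 4 and 5 (median -0.04, all entries -0.05). The most abundant, miR-26a-5p, had log2 fold changes of 0.01 ± 0.24, -0.34 ± 0.24 and -0.33 ± 0.24 (SE) in these comparisons, and miR-26b-5p of 0.12 ± 0.24, -0.21 ± 0.24 and -0.08 ± 0.24. The extremes were miR-107-3p (-0.56 ± 0.55) and miR-27a-3p (0.41 ± 0.29) for the diet, miR-322-5p (-0.38 ± 0.59) and miR-24-3p (0.46 ± 0.26) for the deletion, and miR-107-3p (-0.61 ± 0.55) and miR-27a-3p (0.45 ± 0.29) in KO HFFC against flox chow.

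Of 9 miRNAs linked to activation of stellate cells, the collagen-producing cells of liver fibrosis, none was called either. Their estimates were positive for 8 in flox HFFC against flox chow (median 0.41), for 5 in KO HFFC against flox HFFC (median 0.05) and for 7 in KO HFFC against flox chow (median 0.46). Over all tested entries 120, 120 and 118 of 248 were positive, with medians of -0.02, -0.03 and -0.05. Without flox chow replicate 3 the list medians were 0.33, 0.001 and 0.32, beside 0.06, -0.04 and 0.05 over all entries. The list counts miR-199a-3p and miR-199b-3p, which are 1 sequence, as 2 entries. miR-21a-5p, which is profibrotic in several organs, had log2 fold changes of 0.56 ± 0.41, -0.65 ± 0.42 and -0.09 ± 0.41 (SE). miR-34a-5p, a p53 target that represses Sirt1, reached 20515, 28126 and 10356 CPM in KO HFFC, 17082, 35055 and 13582 CPM in flox HFFC and 13434, 7908 and 4078 CPM in flox chow exosomes. All flox HFFC libraries were above all flox chow libraries, while KO HFFC replicate 3 was below flox chow replicate 1. Flox HFFC and flox chow did not overlap for 8.47% of the tested entries. The log2 fold change of miR-34a-5p was 1.37 ± 0.52 in flox HFFC against flox chow (adjusted p = 0.917), -0.16 ± 0.51 in KO HFFC against flox HFFC (adjusted p = 0.954) and 1.21 ± 0.51 in KO HFFC against flox chow (adjusted p = 0.345, all edgeR). Without flox chow replicate 3 it was 1.01 ± 0.46 in flox HFFC against flox chow and 0.83 ± 0.46 in KO HFFC against flox chow.

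The highest estimates of that list were those of miR-181b-5p with KO HFFC on top, 4.28 ± 1.26 over flox HFFC (adjusted p = 0.232, edgeR) and 4.26 ± 1.27 over flox chow (adjusted p = 0.275, edgeR), carried by KO HFFC replicates 2 and 3 (0.60 and 0.52 with KO HFFC replicate 1 alone). With the diet alone it was the lowest (-0.02 ± 1.17). miR-27b-3p, after miR-21a-5p the most abundant of the list, had log2 fold changes of 0.19 ± 0.23 for the diet and -0.37 ± 0.23 for the deletion. In KO HFFC against flox chow miR-27b-3p was the lowest (-0.19 ± 0.23). miR-199b-3p was highest for the diet (1.47 ± 2.65) and lowest for the deletion (-1.02 ± 2.62), but its mature sequence is the same as that of miR-199a-3p and the counts of the 2 entries moved between them from library to library. Summed, they came to 863, 2720 and 1507 CPM in KO HFFC, 1321, 3182 and 1822 CPM in flox HFFC and 1646, 822 and 564 CPM in flox chow exosomes, with overlap between all groups, and the split between the entries is uncertain.

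The 9 miRNAs linked to stellate cell quiescence, which include the collagen-repressing miR-29 family, were not called in any comparison. Negative estimates were found for 7 in flox HFFC against flox chow (median -0.09), 7 in KO HFFC against flox HFFC (median -0.23) and 8 in KO HFFC against flox chow (median -0.37). Over all tested entries 128, 128 and 130 of 248 were negative, with medians of -0.02, -0.03 and -0.05. miR-122-5p, the main hepatocyte miRNA, had log2 fold changes of -0.09 ± 0.35, -0.23 ± 0.35 and -0.32 ± 0.35 (SE). Without flox chow replicate 3 these were 0.45 ± 0.30, -0.29 ± 0.26 and 0.16 ± 0.29, so the first and the last changed sign. With KO HFFC replicate 1 alone the list median was 0.23 against flox HFFC and -0.08 against flox chow (all entries -0.03 and -0.06). Without flox chow replicate 3 the list medians of the 3 comparisons were -0.23, -0.29 and -0.45, beside 0.06, -0.04 and 0.05 over all entries. miR-194-5p was lowest for the diet (-1.003 ± 0.46) and highest for the deletion (0.62 ± 0.46). It reached 8072, 13785 and 11481 CPM in flox HFFC against 13065, 13175 and 40604 CPM in flox chow exosomes, and without flox chow replicate 3 its log2 fold change for the diet was -0.23 ± 0.35. miR-19b-3p, of the miR-17-92 cluster, was lowest for the deletion (-0.97 ± 0.57) and in KO HFFC against flox chow (-1.56 ± 0.57, adjusted p = 0.345, edgeR), where it reached 168, 435 and 355 CPM in KO HFFC against 1607, 496 and 713 CPM in flox chow exosomes, with no overlap. KO HFFC and flox chow did not overlap for 17.7% of the tested entries. miR-146a-5p, a brake on NF-κB signalling, was highest for the diet (0.17 ± 0.30) and in KO HFFC against flox chow (0.07 ± 0.30).

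**Figure D5:**
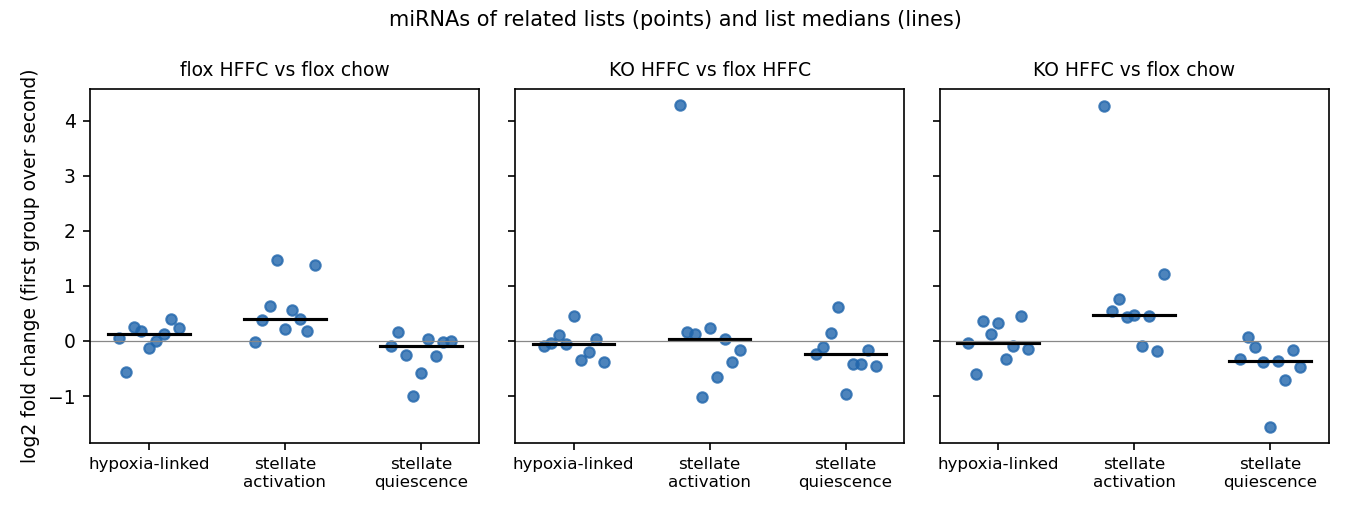
Log2 fold changes of the 9 hypoxia-linked, 9 stellate activation and 9 stellate quiescence miRNAs in each comparison (points), with the list median as a line; miR-27a-3p is in 2 lists. The medians run from -0.37 to 0.46, no miRNA passed the threshold, and the points above 4 are miR-181b-5p.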

How the data were processed

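Small RNA of liver exosomes was sequenced, 1 library a mouse. Exosomes were pelleted from the medium of collagenase-treated liver pieces per the study. The study names a NEBNext kit, the labels a protocol with molecular identifiers (UMIs); which one applies, whether UMIs were collapsed, the counting tool and the genome version are, in the sources used here, not given. The submitters' processing notes name Bowtie2, and the study miRBase. The authors deposited whole-number counts per mature miRNA, RPM values (used only as an alternative scaling) and group means of both, which were not used for tests. All sample columns were matched (0 unmapped).

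Counts were tested with edgeR 4.0.16 in R 4.3.3: TMM factors, filterByExpr (minimum count 10), robust quasi-likelihood test in 1 model of all 9 libraries, Benjamini-Hochberg adjustment over 248 entries, threshold 0.05. The study's DEGseq test pools libraries. Members below the filter are given in CPM of all miRNA counts with exact permutation tests. Fitted 95% intervals use a normal approximation to the SE of the log2 fold change. The common biological coefficient of variation was 55%. The method was tested on simulated data. Replicates differed beyond sampling noise in every pair (chi-square of at least 60.6 per degree of freedom). Names matched RefSeq for 498 of 722 entries and 5 of 5 members.

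Named were the members, their opposite arms and the 3 entries most like each tested member. From each list (hypoxia, stellate activation, stellate quiescence) the 2 most abundant tested miRNAs and those with the lowest and highest log2 fold change were named. miR-34a-5p, of the stellate activation list, was named outside this rule. The miR-200 family and miR-141-3p were named after their values were seen. Members and lists were chosen with earlier results of these data known. Alternatives were other scalings, no filter, DESeq2 1.42.0, pooled Poisson counts, a replicate block and leaving out each library; KO HFFC replicate 1 alone, and the lists without flox chow replicate 3, were added after seeing the data.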

Additional observations from a re-analysis of the deposited data

How the results depend on the processing

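In the main edgeR fit no miRNA was called in any comparison. The runs with other scalings, without the filter and without 1 library were edgeR fits too. Calls are given for KO HFFC against flox HFFC and then for KO HFFC against flox chow. They numbered 4 and 3 of 254 entries with totals implied by the RPM values and 7 and 10 of 722 without the filter. DESeq2 gave 5 and 6 of 718, and raw totals gave 0 and 1 of 248. Leaving out 1 library gave 0 to 5 in both, with 5 in each without KO HFFC replicate 1 and 1 in KO HFFC against flox HFFC without flox chow replicate 3. Counts pooled per group were tested under Poisson sampling, which ignores the spread between mice, on more entries than in the main fit. This test gave 182 calls among 647 entries in flox HFFC against flox chow and 235 among 673 in KO HFFC against flox HFFC. It gave 245 among 669 in KO HFFC against flox chow. In the order of these 3 comparisons this test also called miR-221-3p (log2 fold changes 0.36, -0.61 and -0.25) and miR-222-3p (0.62, 0.80 and 1.42). In all other alternatives neither was called and all kept their sign, with values for miR-222-3p in KO HFFC against flox chow of 0.77 to 1.74 (lowest adjusted p = 0.198, edgeR). With the replicate block it was 1.46 (adjusted p = 0.437, edgeR) and 0 miRNAs were called; same-numbered libraries correlated at -0.13 to 0.36 and other pairs at -0.49 to 0.41, so the numbers were not taken to pair mice. The difference of miR-212-3p in KO HFFC against flox chow ran from -3.66 to 3.21 CPM over the leave-outs, reversing to 1.09 without KO HFFC replicate 2 and to 3.21 without flox chow replicate 3. The log2 ratio of miR-221-3p to miR-222-3p in KO HFFC against flox HFFC was -0.60 with KO HFFC replicate 1 alone; the cause was not tested. Depth limits miR-132-3p, miR-212-3p and miR-210-3p, with at most 7 counts a library.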
